A study of Sus scrofa with 12 samples.

Results

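The interleukin-6 family and the inflammatory cytokines described beside it were followed through 9 genes in pig hearts, listed by name and family. The members are the ligands IL6, IL11, LIF and CLCF1, the receptor chains IL6R, IL6ST and OSMR, and the cytokines TNF and IL33. All 9 were found among the 35682 genes counted, and 5 of them had enough counts in at least 6 libraries to be tested. Messenger RNA was sequenced in 12 libraries, 1 from the border zone (the section next to the infarct) and 1 from the remote zone (the posterior wall) of each of 6 animals, taken at mid level.

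The animals were female Yorkshire pigs of 10 to 12 weeks with ischemia-reperfusion injury, made by balloon occlusion of the left anterior descending artery lasting 60 min. From day 9 after injury all of them received daily prednisolone at 20 mg, mycophenolate mofetil at 500 mg and tacrolimus at 0.75 mg/kg, so both regions come from immunosuppressed animals. At day 14 each animal had a thoracotomy for topical vascular organoids or for fibrin glue alone. The organoids were made from human endothelial progenitor cells and from smooth muscle cells derived from human mesenchymal stem cells. Reads of human cells, where present, were not separated from pig reads. Hearts were taken 28 days later. Which animal received which treatment was not used here, so each region mixes animals of both kinds. Animals are called by their numbers, 1022, 1322, 1323, 1623, 1922 and 3622, and a shared number links the border and remote library of 1 animal.

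Cytokines of the interleukin-6 family share the signal-transducing receptor chain gp130, encoded by IL6ST. IL-6 and IL-11 first bind their own receptors, encoded by IL6R and IL11RA, which then recruit gp130. LIF signals through gp130 paired with the LIF receptor, CLCF1 uses the receptor of ciliary neurotrophic factor, and oncostatin M uses gp130 paired with OSMR. The receptor complexes activate JAK kinases and STAT3, and SOCS3 is induced by STAT3 and shuts the pathway down. TNF acts through TNFRSF1A and TNFRSF1B and the NF-kB pathway. IL-33 is a nuclear protein of the IL-1 family that is released from damaged cells and binds the receptor encoded by IL1RL1. In the injured heart these cytokines are known for early inflammation, survival signals to cardiomyocytes and activation of fibroblasts.

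In the RefSeq annotation of the pig assembly Sscrofa11.1, IL6 is at chr9:91506421-91510830 on the + strand, IL11 at chr6:59540482-59544909 on the - strand, LIF at chr14:47221540-47239513 on the - strand and CLCF1 at chr2:5142315-5152750 on the + strand. The receptor genes are at chr4:95322426-95381393 on the - strand for IL6R, at chr16:35101304-35151832 on the - strand for IL6ST and at chr16:24041312-24101842 on the + strand for OSMR. TNF is at chr7:23699635-23702393 on the + strand and IL33 at chr1:215899830-215941944 on the - strand. The 250 bases before the annotated start of each member were searched on both strands for 4 motifs of factors known from cytokine genes. These were the STAT motif TTCNNNGAA, the AP-1 motif TGANTCA, the C/EBP motif TTGCNNAA and the NF-kB consensus. Of the 9 members, 0 held the STAT motif, 1 held AP-1, 3 held C/EBP and 1 held NF-kB. Over 19531 windows of the same length before annotated genes, the shares with a match were 6.11%, 5.25%, 8.2% and 5.9%. The windows of the 4 members with a match are shown to place these letters before the genes whose levels follow, with that of SOCS3, the feedback inhibitor of the family, as an example with the STAT motif. They lie at chr9:91506171-91506420 (+ strand) for IL6, chr6:59544910-59545159 (- strand) for IL11, chr16:24041062-24041311 (+ strand) for OSMR, chr1:215941945-215942194 (- strand) for IL33 and chr12:3643582-3643831 (+ strand) for SOCS3. Each is written 5′ to 3′ on the strand of its gene, ends at the base before the start, and has the matches in capitals.
IL6: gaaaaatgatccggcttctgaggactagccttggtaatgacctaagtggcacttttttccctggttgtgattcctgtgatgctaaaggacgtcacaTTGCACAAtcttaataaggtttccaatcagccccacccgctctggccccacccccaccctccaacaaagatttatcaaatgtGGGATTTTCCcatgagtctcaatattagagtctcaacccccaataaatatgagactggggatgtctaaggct
IL11: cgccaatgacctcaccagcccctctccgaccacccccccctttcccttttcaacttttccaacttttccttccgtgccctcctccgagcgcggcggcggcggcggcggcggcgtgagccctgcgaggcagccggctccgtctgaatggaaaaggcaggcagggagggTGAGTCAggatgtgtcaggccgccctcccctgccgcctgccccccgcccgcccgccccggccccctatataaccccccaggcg
OSMR: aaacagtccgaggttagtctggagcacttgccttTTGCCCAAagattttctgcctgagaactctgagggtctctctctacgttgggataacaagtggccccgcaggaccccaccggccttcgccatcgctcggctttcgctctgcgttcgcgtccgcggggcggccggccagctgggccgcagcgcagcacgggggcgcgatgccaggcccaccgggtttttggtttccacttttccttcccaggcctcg
IL33: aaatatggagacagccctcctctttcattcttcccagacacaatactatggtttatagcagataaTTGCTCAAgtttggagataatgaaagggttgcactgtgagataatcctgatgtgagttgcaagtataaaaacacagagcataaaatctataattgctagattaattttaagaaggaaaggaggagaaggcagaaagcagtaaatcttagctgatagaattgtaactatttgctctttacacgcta
SOCS3: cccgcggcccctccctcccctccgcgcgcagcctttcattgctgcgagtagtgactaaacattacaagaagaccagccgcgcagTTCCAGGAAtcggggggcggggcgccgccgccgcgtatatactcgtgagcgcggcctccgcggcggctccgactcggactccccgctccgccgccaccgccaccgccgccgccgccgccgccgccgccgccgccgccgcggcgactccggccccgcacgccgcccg

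In IL6 the C/EBP match TTGCACAA lies 154 to 147 bases before the start and the NF-kB match GGGATTTTCC 72 to 63 bases before it. The AP-1 match of IL11 is 83 to 77 bases before the start, the C/EBP matches of OSMR and IL33 are 216 to 209 and 185 to 178 bases before it, and the STAT match of SOCS3 is 166 to 158 bases before it. A match is a run of letters, and no binding was measured here.

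Total counts ran from 15130210 to 30526110 over the border zone libraries and from 20091415 to 31618680 over the remote zone libraries. The border zone library of animal 3622 had the lowest total and stood apart from the rest. It held counts on 28024 genes, against at most 18076 genes in any remote zone library, and of the 11724 genes at 0 in the other 11 libraries it had counts on 6127 (52.3%), with a median of 4 counts. Among genes too low to be tested, 75.4% of those with any count had their highest border zone level in that library. The border zone library of animal 1022 stood apart in another way. Its summed level of 9 fibroblast and matrix markers was 59170 CPM (counts relative to the TMM-scaled library size), against a border zone median of 7979. That library also had the lowest summed level of cardiomyocyte markers, 10530 CPM, below its matrix sum. The other border libraries had 38360 to 60030 CPM of cardiomyocyte markers and the remote libraries 48460 to 93950 CPM.

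In the quasi-likelihood test of edgeR, with p-values adjusted by Benjamini-Hochberg, 2.06% of the 13844 genes tested were higher in the border zone at an adjusted p under 0.05 and 0.0144% were lower. Of the 5 members tested, 0 passed this threshold in either direction, with or without the animal as a block. At an unadjusted p under 0.05, 3 of the 5 were higher in the border zone, OSMR, CLCF1 and IL33, where the share over all genes tested was 17.0%, and 0 were lower, where the share was 7.78%. The Wald test of DESeq2 gave 8 members an adjusted p, and 4 of them, IL6, LIF, OSMR and CLCF1, were under 0.05 and higher in the border zone, against 8.42% of 16776 genes, while 0 were lower, against 1.83%. The border and remote ranges of CPM overlapped for all 9 members, while 2.69% of the genes tested had ranges that did not overlap, 1.99% with every border library above every remote library. These p-values measure the spread between libraries of a region, and in bulk tissue more cells of a type and more RNA per cell cannot be told apart.

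**Figure D1:**
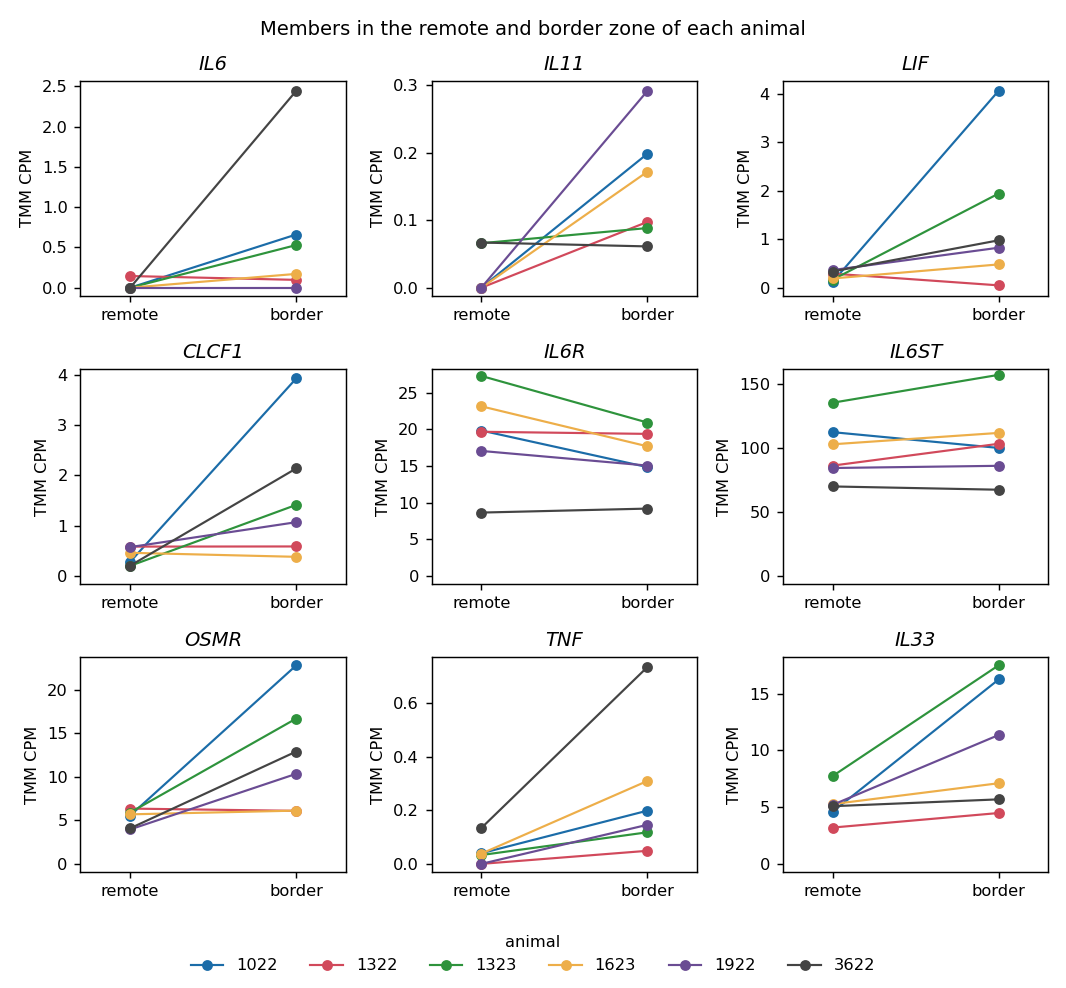
Level of each of the 9 members (TMM-scaled CPM, 1 panel per gene with its own axis from 0) in the remote and border zone library of each animal, joined by a line per animal. IL33 and TNF lines go up in 6 of 6 animals, IL6R goes up in 1, and IL6 and TNF are highest in the border zone of animal 3622 while LIF, CLCF1 and OSMR are highest in that of animal 1022.

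The ligands had few counts in the remote zone, and most of their counts came from the border zone. IL6, the founding cytokine of the family, had 20, 2, 18, 5, 0 and 40 counts in the border zone of animals 1022, 1322, 1323, 1623, 1922 and 3622. In the remote zone it had 3 counts in animal 1322 and 0 in the other 5 libraries, where a count of 0 allows up to 3 counts. IL6 was thus higher in the border zone in 4 animals, at 0 in both regions in 1, and lower in 1. Over all libraries 85 border counts stood against 3 remote counts, a depth-scaled ratio of 25.7 with a 95% interval of 8.49 to 127 that covers counting error only. The library of animal 3622 supplied 62.6% of the border zone level, and without it the ratio was 15.2 (4.89 to 76.7).

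The same test without the filter on low genes gave IL6 a log2 difference of 4.41 (standard error 1.27, adjusted p = 0.108 by edgeR, and 0.124 with the block). In that fit the median of all genes was itself 0.75, and 0.11 without the border library of animal 3622, so a log2 fold change of a low gene is read against that shift. Without that library the log2 fold change of IL6 was 3.42 (adjusted p = 0.14 by edgeR). With 1 animal left out it ran from 3.25 without animal 3622 (adjusted p = 0.239 by edgeR) to 7.15 without animal 1322 (adjusted p = 0.0491 by edgeR), the animal that held all 3 remote counts. The last value is set against remote libraries that are all at 0, so its size depends on the prior count and is no bound. In that unfiltered fit 0.459% of 30085 genes were higher at an adjusted p under 0.05 and 21.4% at an unadjusted p under 0.05. By DESeq2 the adjusted p of IL6 was 0.0282.

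IL11, a ligand known from fibroblast activation and cardiac fibrosis, was the lowest of the family. It had 6, 2, 3, 5, 6 and 1 counts in the border zone of the animals in the same order, and 2 counts in animal 1323 and 1 in animal 3622 of the remote zone, with 0 elsewhere. Every border zone library had at least 1 count, and 5 of 6 animals were higher in the border zone. The 23 border counts against 3 remote counts gave a ratio of 6.95 (counting interval 2.1 to 36.1). Its log2 fold change without the filter was 2.51 (standard error 1.28, adjusted p = 0.196 by edgeR). Unlike IL6, it did not peak in the border zone of animal 3622, which had 1 count.

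LIF, a ligand known to protect cardiomyocytes and to drive their growth, was counted in all 12 libraries. The border zone had 123, 1, 66, 14, 17 and 16 counts in the same order of animals and the remote zone 3, 6, 5, 5, 7 and 5. The remote zone was even, between 0.119 and 0.364 CPM. The border zone ran from 0.0487 CPM in animal 1322, below every remote library, through a median of 0.902 to 4.06 CPM in animal 1022. LIF was higher in the border zone in 5 of 6 animals, and its log2 fold change without the filter was 2.46 (standard error 0.70, adjusted p = 0.105 by edgeR, 0.237 with the block and 0.0173 by DESeq2). Animal 1022 supplied 48.7% of the border zone level. Without that animal the ratio of summed counts fell from 6.93 (counting interval 4.75 to 10.4) to 3.76 (2.47 to 5.91).

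CLCF1, a ligand of the receptor of ciliary neurotrophic factor, was the only one of the 4 member ligands with enough counts to be tested. The filter asks for enough counts in at least 6 libraries of either region, so the border zone alone can carry a gene into the test. CLCF1 had 11 to 119 counts in the border libraries and 3 to 12 in the remote libraries, so its p-values are read with that limit. Its border zone level was lowest at 0.378 CPM, had a median of 1.24 and was highest at 3.93 CPM, and its remote zone level ran from 0.198 through a median of 0.367 to 0.581 CPM. Animals 1022 and 3622 had the highest border levels, and 5 of 6 border libraries were above every remote library, that of animal 1322 barely, at 0.584 CPM. The exception was animal 1623, whose border library had 11 counts against 12 in its remote library. The log2 fold change was 2.05 (standard error 0.56, 95% interval 0.85 to 3.25, adjusted p = 0.0646 by edgeR, 0.125 with the block and 0.0153 by DESeq2). Without animal 1022 it was 1.45 (adjusted p = 0.202 by edgeR).

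Of the 3 receptor chains, OSMR had the largest log2 fold change between the regions, and IL6R and IL6ST had values close to 0. IL6ST, the chain shared by the whole family, was between 67.2 and 157 CPM in the border zone (median 101.5) and between 69.7 and 135.2 CPM in the remote zone (median 94.4). The regions overlapped over nearly their whole range, and 4 of 6 animals were higher in the border zone. Its log2 fold change was 0.08 (standard error 0.21, 95% interval -0.38 to 0.54, adjusted p = 0.848 by edgeR). The interval leaves room for differences of that size in either direction, and the fitted value was -0.0023 without animal 1323.

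IL6R, which gives a cell its response to IL-6 itself, was between 9.17 and 20.9 CPM in the border zone (median 16.4) and between 8.62 and 27.3 CPM in the remote zone (median 19.7). It was lower in the border zone in 5 of 6 animals, and animal 3622 was the lowest in both regions. The log2 fold change was -0.25 (standard error 0.25, 95% interval -0.80 to 0.29, adjusted p = 0.564 by edgeR and 0.241 with the block). IL6R and IL6ST varied together between animals, with a Pearson r of 0.889 over the 6 border libraries and 0.866 over the 6 remote libraries of log2 CPM. These points share libraries and depth, and the coefficients are descriptions.

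OSMR, which with gp130 forms the receptor of oncostatin M, was between 6.09 and 22.8 CPM in the border zone (median 11.6) and between 3.95 and 6.35 CPM in the remote zone (median 5.61). The remote libraries were close together, while the border libraries split into 4 above every remote library and 2, of animals 1322 and 1623, within the remote range. Its log2 fold change was 1.25 (standard error 0.31, 95% interval 0.58 to 1.92), a fold of 2.38, with an adjusted p = 0.0509 by edgeR, 0.0838 with the block and 0.00772 by DESeq2. The value sits just outside the threshold. Without animal 1322 the adjusted p was 0.0384 and without animal 1022 it was 0.133 by edgeR, with log2 fold changes of 1.44 and 0.999.

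OSM, the ligand of OSMR, was named after its values were seen. It had 29, 0, 14, 17, 3 and 7 counts in the border zone and 2, 10, 2, 4, 2 and 3 in the remote zone, in the same order of animals. The border zone had more in 5 of 6 animals, and animal 1322, whose OSMR was not higher, had 0 border counts against 10 remote counts. The unfiltered log2 fold change of OSM was 1.15 (standard error 0.84, adjusted p = 0.364 by edgeR). The ratio of its summed counts was 2.76 (counting interval 1.7 to 4.63), and 1.8 (1.04 to 3.21) without animal 1022. OSM lies next to LIF on chromosome 14, at chr14:47242767-47246836 on the same strand.

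**Figure D2:**
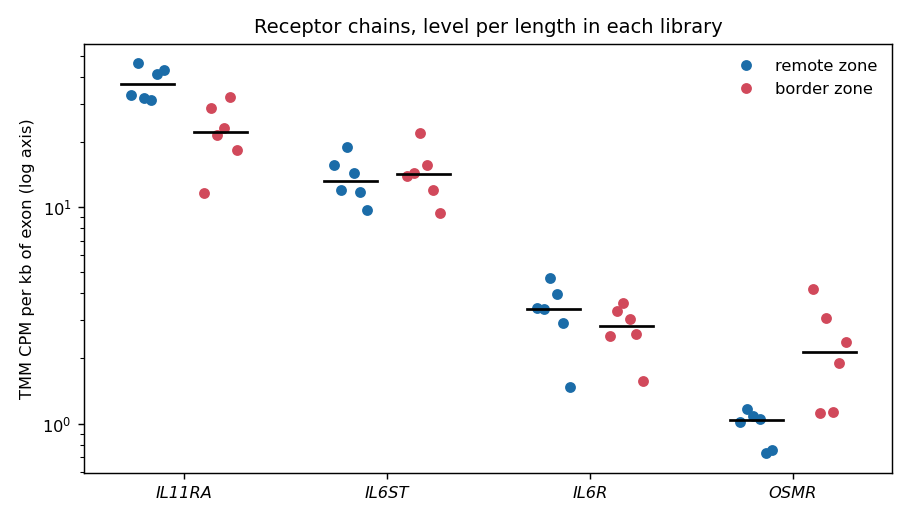
Level per exon length (TMM CPM per kb, log axis) of IL11RA, IL6ST, IL6R and OSMR in each library, remote zone in blue and border zone in red, with bars at the medians. OSMR has the lowest remote median of these 4 chains, and its border median is 2.14 against 1.04, while IL11RA has a border median of 22.3 against 37.2.

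Divided by exon length, receptor levels can be set beside each other. In the remote zone the median level was 37.2 CPM per kb for IL11RA, 13.2 for IL6ST, 3.39 for IL6R and 1.04 for OSMR. In the border zone the medians were 22.3, 14.2, 2.81 and 2.14, in the same order. CNTFR, the receptor that CLCF1 uses, was added to this comparison after its values were seen, and had medians of 0.735 in the remote zone and 2.29 in the border zone, below OSMR in the former and above it in the latter. IL6ST was above IL6R and above OSMR in 12 of 12 libraries, so the shared chain exceeded each of these partners everywhere. The median ratio of IL6ST to OSMR was 14.5 in the remote zone (10.3 to 17.4) and 6.7 in the border zone (3.31 to 13.8), and the ratio was lower in the border zone of 4 of 6 animals. IL6R was above OSMR in 10 of 12 libraries, and OSMR was the higher of the pair in the border zone of animals 1022 and 3622. The median ratio of IL6R to OSMR was 3.56 in the remote zone (1.97 to 4.31) and 1.26 in the border zone (0.606 to 2.97), lower in the border zone of 5 of 6 animals. IL11RA, the receptor of IL-11, had less in the border zone in all 6 animals, and its log2 fold change was -0.74 (standard error 0.22, adjusted p = 0.0848 by edgeR, 0.0797 with the block and 0.0204 by DESeq2). The ligands per length were lower still, with border medians of 0.362 CPM per kb for CLCF1, 0.312 for IL6, 0.0994 for LIF and 0.0693 for IL11. LIF was divided by 9.073 kb and IL6 by 1.123 kb. In CPM the border median of LIF was the higher, 0.902 against 0.351, so their order depends on the length used.

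TNF and IL33 each had more in the border zone in 6 of 6 animals. So did 11.7% of the genes tested, among which IL33 is, and 1.90% of the 16241 genes with counts under the filter, among which TNF is. TNF, the classical cytokine of NF-kB signaling, had 6, 1, 4, 9, 3 and 12 counts in the border zone and 1, 0, 1, 1, 0 and 2 in the remote zone, in the same order of animals. Animal 3622 was highest in both regions and supplied 47.2% of the border zone level. The ratio of summed counts was 6.34 (counting interval 2.47 to 20.7), and 4.67 (1.74 to 15.7) without the border library of animal 3622. Its log2 fold change without the filter was 2.49 (standard error 1.09, adjusted p = 0.19 by edgeR, 0.176 with the block and 0.076 by DESeq2).

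IL33, the alarmin of the IL-1 family, was between 4.48 and 17.5 CPM in the border zone (median 9.23) and between 3.20 and 7.74 CPM in the remote zone (median 5.14). Animals 1022, 1323 and 1922 were above every remote library, and the other 3 border libraries were within the remote range. The border excess within an animal ran from 0.16 to 1.80 on the log2 scale. The log2 fold change was 1.01 (standard error 0.34, 95% interval 0.28 to 1.73, adjusted p = 0.107 by edgeR, 0.0821 with the block and 0.0586 by DESeq2). IL1RL1, the receptor of IL-33, was named after its values were seen. It had 202, 4, 19, 11, 10 and 31 counts in the border zone and 0, 0, 6, 2, 1 and 0 in the remote zone, in the same order of animals. It did not pass the filter on low genes. Its unfiltered log2 fold change was 4.62 (standard error 1.03, adjusted p = 0.0609 by edgeR, 0.0864 with the block and 0.000543 by DESeq2). Animal 1022 held most of the IL1RL1 counts. The ratio of summed counts was 27.9 (counting interval 14.5 to 61.6), and 7.7 (3.85 to 17.5) without that animal.

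**Figure D3:**
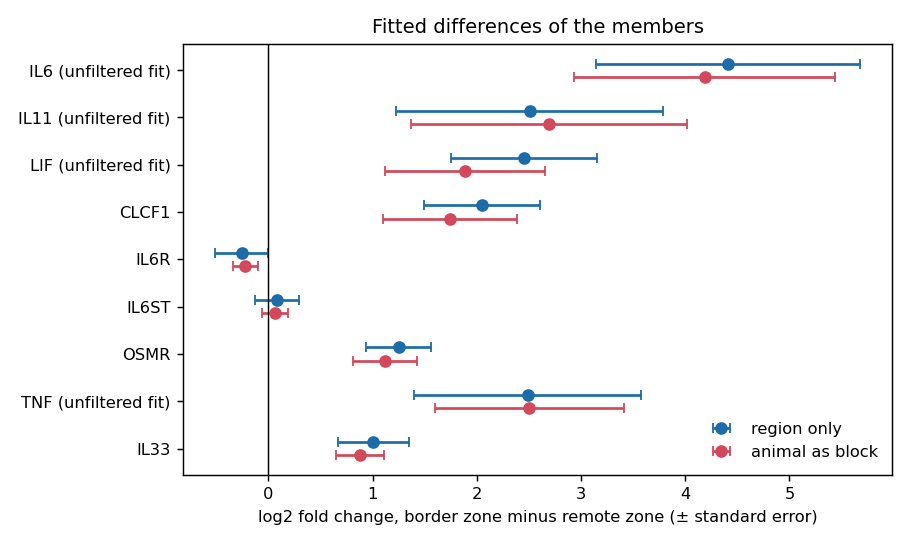
Fitted log2 fold change (border zone minus remote zone) of each member with its standard error, from the fit with region only in blue and with the animal as a block in red. IL6R and IL6ST lie within 1 standard error of 0 in the fit with region only, and the 4 members under the filter, taken from the unfiltered fit, have the widest bars.

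Across the 12 libraries OSMR and CLCF1 had a Pearson r of 0.896 on log2 CPM, with 0.937 over the 6 border libraries and 0.0704 over the 6 remote libraries. OSMR and IL33 had 0.776 over all libraries, 0.775 in the border zone and -0.173 in the remote zone. Animal 1022 was among the 2 highest border libraries for each of these 3 genes. Of all genes tested, 32.6% had their highest border zone level in animal 1022. The genes with a symbol most like OSMR over the 12 libraries were ITGA3 (r = 0.941), MDN1 (0.935) and EBF4 (0.934), and those most like CLCF1 were FLVCR2 (0.944), SYNE3 (0.929) and GRIK5 (0.919). Most like IL33 were SLC39A10 (0.953), POGK (0.94) and KIF2A (0.936). For IL6R they were ZBTB16 (0.905), MTMR10 (0.902) and ZNF436 (0.898), and for IL6ST they were MSL1 (0.927), MEX3C (0.925) and VPS54 (0.915). All are descriptions over libraries that share depth and tissue makeup.

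The rest of the pathway was read from 6 lists of genes by role. Together 3 of their 72 tested genes (4.17%) passed the adjusted threshold by edgeR, where the share over all genes tested was 2.07%. At an unadjusted p under 0.05 by edgeR 28 (38.9%) were higher and 4 (5.56%) lower, where the shares over all genes tested were 17.0% and 7.78%. Of the other ligands and receptors of the family, 9 were tested, 0 passed, and at an unadjusted p under 0.05 by edgeR 3 were higher and 1, IL11RA, was lower. Their median log2 fold change was 0.44, against 0.04 for all genes tested. By DESeq2 1 of 11 passed in each direction, where the shares over all genes were 8.42% higher and 1.83% lower. Of the 13 signal transducers of gp130 and their inhibitors, 0 passed by edgeR, and at an unadjusted p under 0.05 there were 5 higher and 2 lower, with a median of 0.38. By DESeq2 1 was higher and 0 lower.

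SOCS3, the feedback inhibitor, was between 8.52 and 59.9 CPM in the border zone (median 15.7) and between 6.55 and 11.4 CPM in the remote zone (median 7.77). All 6 animals had more in the border zone, and it was highest in animals 1022 and 1323, the same animals that were highest for OSMR and LIF. Its log2 fold change was 1.37 (standard error 0.43, adjusted p = 0.0885 by edgeR, 0.0821 with the block and 0.0292 by DESeq2). PIAS3, an inhibitor of STAT3, had a log2 fold change of 0.66 (adjusted p = 0.112 by edgeR).

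Of 12 tested genes known as STAT3 targets, with a median of 0.35, 1 passed by edgeR and was higher, against 2.06% of all genes tested. It was TIMP1, an inhibitor of matrix metalloproteinases. TIMP1 was between 15.8 and 124.5 CPM in the border zone (median 28.4) and between 4.83 and 12.7 CPM in the remote zone (median 9.28), with all 6 border libraries above all 6 remote libraries. On the log2 scale it rose by 2.22 (standard error 0.48, adjusted p = 0.0338 by edgeR), and with the animal as a block by 1.84 with an adjusted p = 0.0773. The border library of animal 1022 held the highest TIMP1 level, and without that animal the log2 fold change was 1.45 (adjusted p = 0.0569 by edgeR). FOS, an immediate early gene, had a log2 fold change of 1.72 (adjusted p = 0.0859 by edgeR).

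Of 22 tested genes of the TNF pathway, 0 passed by edgeR. DESeq2 gave 23 an adjusted p and called 3 higher and 1 lower, where the shares over all genes were 8.42% and 1.83%. At an unadjusted p under 0.05 by edgeR 6 of the 22 were higher and 1 was lower, against 17.0% and 7.78% of all genes tested. The median was 0.29. RIPK1, the kinase below TNFRSF1A, had a log2 fold change of 0.92 (adjusted p = 0.0842 by edgeR), and RELB, a subunit of NF-kB, had 0.87 (adjusted p = 0.0892 by edgeR).

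The IL-1 family and inflammasome list, to which IL33 belongs by family, had the highest median of the 6 lists, 1.14 over 11 genes tested. Of these 2 passed by edgeR, both higher, against 2.06% of all genes tested. IL18, a cytokine matured by caspase-1, was between 0.486 and 6.11 CPM in the border zone (median 2.07) and between 0.156 and 0.725 CPM in the remote zone (median 0.381). IL18 had 10 to 185 counts in the border libraries and 3 to 19 in the remote libraries, so the border zone was enough to carry it past the filter. On the log2 scale it rose by 2.59 (standard error 0.62, adjusted p = 0.0493 by edgeR), and with the block by 2.23 with an adjusted p = 0.0783. Without animal 1022 the log2 fold change of IL18 was 1.998 (adjusted p = 0.139 by edgeR). IL1R1, the signaling receptor of IL-1, was between 7.01 and 20.9 CPM in the border zone and between 3.01 and 7.07 CPM in the remote zone, and rose by 1.23 (standard error 0.27, adjusted p = 0.0338 by edgeR, and 0.0841 with the block). At an unadjusted p under 0.05 by edgeR 8 of the 11 were higher, against 17.0% of all genes tested. TIMP1, IL18 and IL1R1 each lost the adjusted threshold when any animal but 1322 was left out, and when the border library of animal 3622 was left out.

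Of the other inflammatory cytokines 5 were tested and 0 passed by edgeR, with a median of -0.03. At an unadjusted p under 0.05 by edgeR 2 were higher, against 17.0% of all genes tested. DESeq2 called 1. CSF1, the growth factor of macrophages, was at 165.5 CPM in the border zone of animal 1022, at 20.9 to 44.8 CPM in the other border libraries and at 16.2 to 30.65 CPM in the remote zone. Its log2 fold change was 1.32 (adjusted p = 0.0976 by edgeR), and 0.60 without animal 1022 (adjusted p = 0.243 by edgeR). IL16, a T cell attractant, had 0.84 (adjusted p = 0.184 by edgeR). IL17A, named after its values were seen, had 16 counts in the border zone of animal 3622 and 0 in the other 11 libraries, which is the library with counts on many genes at 0 elsewhere.

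**Figure D4:**
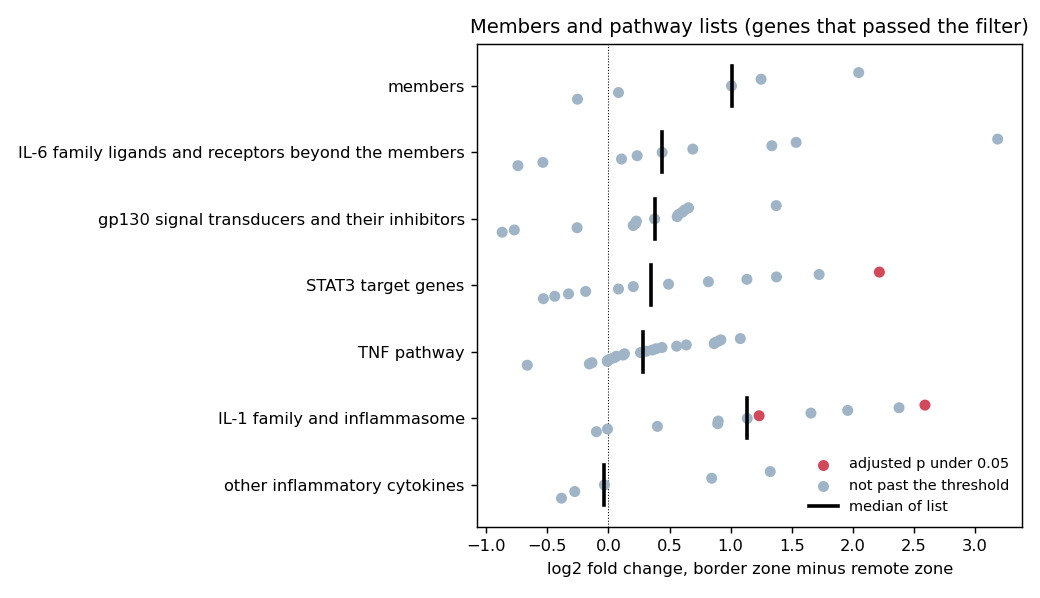
Fitted log2 fold change (border zone minus remote zone) of each gene that passed the filter, for the members and 6 lists by role, with a black bar at each list's median and red points at an adjusted p under 0.05 by edgeR. The red points are TIMP1, IL1R1 and IL18, and the medians run from -0.03 for the other inflammatory cytokines to 1.14 for the IL-1 family, with 1.01 for the members.

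Each list of markers of cells other than cardiomyocytes had its highest border zone sum in animal 1022. The summed level of 9 fibroblast and matrix markers was 2882 to 59170 CPM in the border zone and 1003 to 2549 CPM in the remote zone, higher in 6 of 6 animals and highest in animal 1022, and 7 of the 9 passed the threshold by edgeR, against 1 with the animal as a block. The border library of animal 1322 had the lowest matrix sum, 2882 CPM, and it also had the lowest border levels of 4 members, LIF, OSMR, TNF and IL33. For OSMR the margin was small, 6.09 against 6.11 CPM in animal 1623. The lowest border level was in animal 1922 for IL6, in animal 1623 for CLCF1 and in animal 3622 for IL11, IL6R and IL6ST. The 10 macrophage markers summed to 137.3 to 1697 CPM in the border zone and 123 to 264.2 CPM in the remote zone, higher in 5 of 6 animals, with 1 of 10 past the threshold and 0 with the block. The T cell markers summed to 8.45 to 38.6 CPM against 7.07 to 14.1, and the neutrophil markers to 4.18 to 12.5 CPM against 2.59 to 4.602, and none of the markers identified was at 0 in every library. The smooth muscle and pericyte markers summed to 838.8 to 3154 CPM in the border zone and 557.4 to 997 CPM in the remote zone, and the mast cell markers to 24.3 to 55.02 CPM against 19.1 to 31.4, each higher in 5 of 6 animals and highest in animal 1022. The endothelial markers summed to 390.3 to 565 CPM against 298.1 to 667 and were higher in the border zone in 3 of 6 animals. The summed cardiomyocyte markers were lower in the border zone of 6 of 6 animals. The part of these cells in the levels of the members was not tested.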

How the data were processed

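Messenger RNA of the border and remote zone of 6 pig hearts was sequenced in 12 libraries from poly(A)-selected RNA, with reads of 150 bases. The deposited values are raw counts of reads per gene, which the authors made with STAR and featureCounts on Sscrofa11.1. The libraries were nondirectional, so reads of overlapping genes on opposite strands cannot be told apart, and PCR copies were not separated from molecules. The featureCounts options for reads shared by genes are not given in the sources used here.

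Region and animal came from the sample titles. The treatment of each animal was not used here. Symbols came from a table that paired 15623 of 35682 identifiers. The counts were analysed with R 4.3.3, edgeR 4.0.16 (filterByExpr, TMM, robust quasi-likelihood test, Benjamini-Hochberg adjustment over 13844 genes, threshold 0.05), limma 3.58.1 and DESeq2 1.42.0. Log2 CPM used a prior count of 2. Members under the filter were read from the same fit without it, with raw counts and exact conditional intervals of count ratios. Standard errors were taken as the ratio of the log2 fold change to the root of the F statistic. Exon length was the union of RefSeq exons. The authors counted reads on the Ensembl annotation, so a length may differ from that of the exons counted. Scripts were tested on simulated data.

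Libraries are paired by animal, since a shared number marks 1 heart. Across genes, the deviations of the 2 libraries of an animal from their region's mean had an average r of 0.345 (-0.0302 to 0.572), with 4 of 6 pairs over 0.1. The members and lists were chosen with earlier results of these data known. The genes named are the 9 members, from each list the genes past the threshold or else those with the smallest p up to 2 in all, SOCS3, and the 3 genes most correlated with each member tested. OSM, IL1RL1, IL17A and CNTFR were added after their values were seen. Alternatives were the animal as a replicate block, DESeq2, scaling by library totals or by the size factors of DESeq2, a filter of at least 10 counts in every library or none, each animal left out and the border library of animal 3622 left out. The block with each animal left out was added after the data were seen. IL31, HP, IL1B, IL1RN, IL18BP and TSLP had no identifier by the symbol table and were not analysed here. The values of 1 list gene that the rule names are not reported here. LIFR had no length and was not analysed per length.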

Additional observations from a re-analysis of the deposited data

Results flagged for a closer look

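Of 18 groups of 6 libraries, each member in each region, 1 had a library far from the others relative to the range of the group. Chance gives this in about 1 in 20 groups of values without ties. It was IL6 in the remote zone, where animal 1322 had a log2 CPM of -2.13 and the next library had -3.58. That value rests on 3 counts, and the other 5 remote libraries had 0. With 5 libraries tied at 0, any count in the last is flagged, so the rate of 1 in 20 does not apply here.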

How the results depend on the processing

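Of 161 values of the members under the alternatives, 147 kept their direction and their side of the threshold, 12 passed where they had not, and 2 turned. A member could not lose a call, since 0 members were past the threshold in the main fit. Of 508 values of the other named genes, 415 kept both, 29 passed where they had not, 51 lost a call and 13 turned. The values that turned belonged to genes with reported log2 fold changes between -0.22 and 0.08. IL6ST was -0.0023 without animal 1323 and -0.0093 with the replicate block without animal 1323. MSL1 was -0.0115 by DESeq2, -0.0140 without the filter, -0.0131 without animal 1322, -0.0038 without animal 1323 and -0.0107 with the block without animal 1322. MTMR10 was 0.257 with library totals, 0.0151 with at least 10 counts in every library, 0.0207 without animal 1623, 0.0145 without the border library of animal 3622 and 0.0243 with the block without animal 1623. ZBTB16 was 0.197 with the block without animal 1022. ZNF436 was 0.174 with library totals and 0.0094 with the block without animal 1022. With 1 animal or the border library of animal 3622 left out, IL6ST ran from -0.0093 to 0.181, MSL1 from -0.0131 to 0.102 and MTMR10 from -0.0456 to 0.0243. Library totals moved the median of all genes from 0.04 to 0.32.

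The genes past the threshold numbered 287, and 41 with the replicate block, 1719 by DESeq2 (1412 higher and 307 lower), 1551 with library totals, 139 without the filter, 149 with at least 10 counts in every library and 156 without the border library of animal 3622. With 1 animal left out they ranged from 0 (without 1623 or 3622) to 519 (without 1322), and with the block from 0 to 856 (without 1022). The members past it numbered 0, and 4 by DESeq2, 3 with library totals (OSMR, CLCF1 and IL33) and 0 to 2 with 1 animal left out, the 2 being OSMR and LIF without animal 1322. In the unfiltered fit IL6 (adjusted p = 0.0491 by edgeR) also passed without that animal, and IL6 and LIF passed with library totals. The other ligands and receptors of the family numbered 0, and 2 by DESeq2, 2 with library totals and 0 to 1 with the block and 1 animal left out. The gp130 transducers numbered 0, and 1 by DESeq2, 2 with library totals and 0 to 2 with the block and 1 animal left out. The STAT3 targets numbered 1, and 0 with the block, 3 by DESeq2, 4 with library totals, 0 without the filter, 0 without the border library of animal 3622 and 0 to 2 with 1 animal left out, with or without the block. The TNF pathway numbered 0, and 4 by DESeq2, 5 with library totals and 0 to 3 with the block and 1 animal left out. The IL-1 family numbered 2, and 0 with the block, 5 by DESeq2, 1 with DESeq2 size factors, 5 with library totals, 0 without the filter, 1 with at least 10 counts in every library, 0 without the border library of animal 3622, 0 to 3 with 1 animal left out and 0 to 2 with the block besides. The other cytokines numbered 0, and 1 by DESeq2, 1 with library totals and 0 to 1 with the block and 1 animal left out. Leaving out an animal lowers the number of samples, and the cause of the other changes was not tested.

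Over the alternatives the log2 fold change ran from 0.91 to 1.57 for OSMR, 1.28 to 2.39 for CLCF1 and 0.69 to 1.31 for IL33, with adjusted p between 0.00772 and 0.23, 0.0153 and 0.285, and 0.0433 and 0.283 by edgeR or DESeq2. For IL6, LIF, IL11 and TNF it ran from 3.25 to 7.15, 1.28 to 2.93, 2.01 to 3.51 and 1.98 to 2.91, with adjusted p between 0.0282 and 0.311, 0.0173 and 0.524, 0.147 and 0.61, and 0.076 and 0.356 by edgeR or DESeq2, and the depth, with at most 7 counts in any remote zone library, limits these ratios. DESeq2 gave IL11 no adjusted p.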
